A study of Mus musculus with 9 samples.

Results

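The transcripts of BV2 cells held in lipopolysaccharide (LPS) for 12 h were compared with those of untreated BV2 cells, gene by gene. BV2 is an immortalized line of mouse microglia, the resident macrophages of the brain, and LPS is a cell wall component of Gram-negative bacteria. The study sequenced polyadenylated RNA from 9 libraries in 3 groups of 3: untreated cells at 0 h, cells given LPS at 200 ng/ml for 1 h, and cells given the same dose for 12 h. The 6 libraries of the first and last group entered every comparison here, and the 1 h libraries contributed to the estimate of spread. All genes of the deposited table with a mean of at least 1 FPKM over the 9 libraries were taken, 5643 of 6462. FPKM are fragments per kilobase of transcript scaled to the library's total, so levels of different genes are compared per length.

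The groups limit what the comparison can show. All libraries come from 1 cell line. No label ties the 3 libraries of a group to separate cultures, so the p-values describe the spread among these libraries alone, which may be technical. Untreated cells were taken at 0 h and none at 12 h, so an effect of LPS and one of the hours in culture cannot be told apart. The deposited table holds genes that had been selected for a difference among these same libraries, so counts of changed genes describe a chosen set.

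LPS is bound by CD14 and TLR4, and the signal runs through MyD88 and TRIF to NF-κB, AP-1 and interferon regulatory factors. The first wave of transcripts appears within an hour, and the cytokines and interferon made in that wave act back on the cells, so the later state mixes direct and secondary responses. Macrophages in this late state are known for itaconate and nitric oxide production, cystine uptake and altered lipid handling, and microglia are known to lower receptors of their resting, surveying state.

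Markers of the cell type were looked up, which cannot test the label, because the table holds only genes selected for a difference among these libraries. Of 17 microglia and macrophage markers, 12 were listed in the table and 11 were tested, and their FPKM summed to 2137 to 2289 in the untreated libraries and 2140 to 2263 at 12 h. No astrocyte, neuron, endothelial or fibroblast marker was listed, and of 8 oligodendrocyte markers only Olig2 was, at no more than 0.08408 FPKM. An unlisted marker may still be expressed, and no gene outside the table was analysed here. Within the microglial list, 5 genes rose, Itgam, Adgre1 (F4/80), Spi1 and Lyz2 among them, 5 fell, Tyrobp, Csf1r, Cx3cr1, Trem2 and Laptm5, and 1 did not pass the test described below. The source label names brain as the tissue, while the cell line label names BV2. The listed FPKM summed to 195872 to 198075 per untreated library and 223720 to 228207 per 12 h library, so the sums did not overlap between the groups; the number of reads is unknown.

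At 12 h, 4611 of the 5643 tested genes (81.7%) differed from untreated cells at an adjusted p under 0.05 in limma with Benjamini-Hochberg adjustment. Of these 2318 were higher (41.1%) and 2293 lower (40.6%), and the median log2 difference over all tested genes was 0.03. Differences are of log2(FPKM + 1), which understates the change of genes near 0. At least a 2-fold change was seen in 256 higher genes (4.54%) and 155 lower genes (2.75%). With a pseudocount of 0.1 these counts were 309 and 306, so the excess of higher genes depends on the pseudocount. Among genes with a mean of at least 5 FPKM they were 190 and 97. The libraries of the 2 groups did not overlap in 4672 genes (82.8%). Most changed genes named below were picked with this as a condition, so a lack of overlap in them is a description only. Every "rose" or "fell" below refers to this test, a change given as "by" a value is on the log2 scale, with values as mean ± SD of 3 libraries per group. The 286 changed genes named here and in the closing observations had adjusted p-values of at most 0.0217 and standard errors of 0.023 to 0.14 on the log2 scale.

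**Figure D1:**
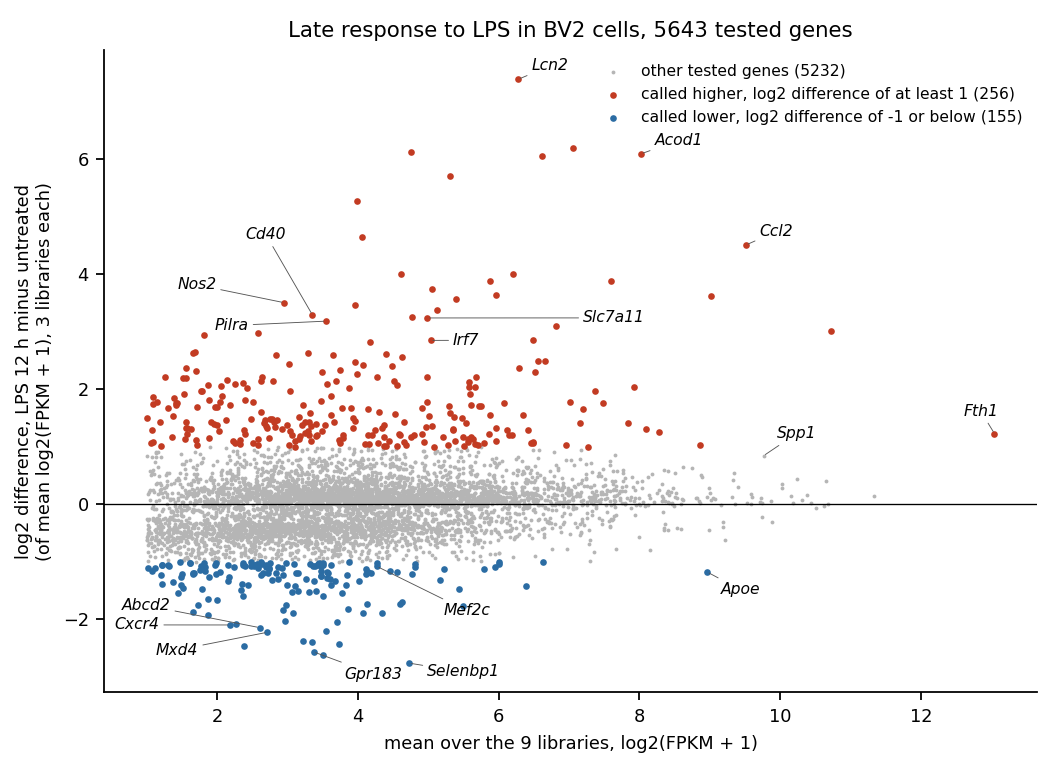
Each point is 1 of 5643 tested genes, with its mean log2(FPKM + 1) over the 9 libraries on the horizontal axis and the log2 difference, LPS 12 h minus untreated, on the vertical axis. Red points are the 256 genes higher and blue points the 155 genes lower by at least 2-fold, grey points are all others. The increases reach further from 0 than the decreases: Lcn2 lies at 7.39 and Selenbp1 at -2.77.

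A few genes carried much of the added FPKM. The 10 called genes with the largest gain in FPKM made up 4.961% ± 0.04068 of the listed FPKM in untreated cells and 11.09% ± 0.2232 at 12 h (SD, n = 3). They were Fth1, the chemokines Ccl3, Ccl2, Ccl4 and Ccl7, Acod1, Spp1, Actb, B2m and Hspa5. Fth1, the ferritin heavy chain that stores iron, stood first with 5685, 5703 and 5680.1 FPKM in the untreated libraries and 13408, 12925 and 13745 FPKM in the 12 h libraries. Its 12 h libraries all lay above the untreated ones, and its share went from 2.886% ± 0.02242 to 5.914% ± 0.1254 of the listed FPKM. Fth1 is the most abundant listed gene in every library, so quantile normalization, which gives all libraries the same top value, sets its difference to 0. Actb, a cytoskeletal actin often used as a reference transcript, rose from 1466 ± 69.7 to 1930.05 ± 23.9 FPKM (log2 difference 0.40).

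The 10 called genes with the largest loss of FPKM went from 3.173% ± 0.08143 to 2.01% ± 0.01444 of the listed FPKM. Apoe, which carries lipids out of glia, led them with 699.6, 622 and 618 FPKM in the untreated libraries and 275, 292 and 286 FPKM in the 12 h libraries. The 12 h libraries were all below the untreated ones, a log2 difference of -1.18 (SE 0.041). Cst3 (cystatin C, a secreted protease inhibitor), Gpnmb, S100a4, the metallothionein Mt2, the receptor adaptor Tyrobp, Ptma, the histone variants H2afz and H3f3a, and the desaturase Scd2 made up the rest. The falls of Gpnmb and Ptma were small in ratio, at -0.30 and -0.22.

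Ranked by log2 difference, places 11 to 30 among the increases were Il1rn, Cxcl10, Tnf, Gdf15, Slpi, Ccl4, Isg15, Nos2, Pim2, Ptgs2, Cd40, Lrrc25, Slc7a11, Pilra, Nfkbiz, Ccl3, Il1b, Il1a, Irf7 and Slc15a3. Il1rn, the decoy ligand of the IL-1 receptor, rose from 10.7 ± 0.558 to 188 ± 27.8 FPKM, while Il1b rose from 0.116 ± 0.025 to 7.94 ± 2.05 FPKM and Il1a from 0.0199 ± 0.0131 to 7.06 ± 1.97 FPKM. Gdf15, a stress-induced TGF-β family member, rose from 2.38 ± 0.352 to 44.2 ± 4.74 FPKM, and Pim2, a serine/threonine kinase, from 2.58 ± 0.163 to 38.5 ± 2.62 FPKM. Lrrc25, a leucine-rich repeat membrane protein of myeloid cells, rose from 6.04 ± 0.743 to 66 ± 0.773 FPKM.

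Among the decreases, places 11 to 30 were Cxcr4, Asb10, Ankrd37, Pdcd4, Arg1, Rgs2, Ocstamp, Deptor, Tcp11l2, Rasgrp3, Rnase4, Serpinb1a, Sepp1, Rin2, Lbh, Sesn1, Kbtbd11, Arl4c, Slc17a5 and Rnf144b. Deptor, an inhibitor of the growth kinase mTOR, fell from 9.33 ± 0.375 to 1.87 ± 0.112 FPKM, and Sesn1, a stress-induced inhibitor of mTORC1, from 15.7 ± 0.801 to 4.5 ± 0.468 FPKM. Pdcd4, an inhibitor of translation initiation, fell from 10.2 ± 0.867 to 1.74 ± 0.0681 FPKM. Rgs2, which shortens G protein signals, fell from 25.4 ± 1.4 to 6.1 ± 0.626 FPKM, and Rasgrp3, an activator of Ras proteins, from 59.6 ± 1.24 to 16.7 ± 0.713 FPKM. Ocstamp, needed for the fusion of osteoclasts, and Slc17a5, the lysosomal sialic acid exporter, fell by 1.89 and 1.54 on the log2 scale. Plk2, the kinase in the title of the series, stood at 13 FPKM untreated, 120.3 FPKM at 1 h and 40.2 FPKM at 12 h.

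The bases just before the start sites of the changed genes were searched for 13 short motifs. RefSeq promoter windows on GRCm38.p6 were used, cut to the 250 bases before each annotated start, and 4614 tested genes had at least 1 window. The interferon-stimulated response element (ISRE), which interferon regulatory factors bind, was searched on both strands as GAAA, any 2 bases, then GAAA. It stood in 12.4% of 258 windows of genes higher by at least 2-fold, 3.18% of 157 windows of genes lower by at least 2-fold, 1.94% of 1084 windows of genes that did not pass the test, 3.17% of 5954 windows of all tested genes and 2.98% of 32851 RefSeq windows of this length. The AP-1 site TGANTCA stood in 14.7%, 4.46%, 4.7%, 4.7% and 6.75% of the same sets, in that order. A κB form, GGG, any 2 bases, then TTTCC, stood in 3.88%, 1.27%, 1.57%, 1.56% and 1.41%. A match is a run of letters and not a mapped binding site. The 4 genes with the largest increase among those with an ISRE match are shown. Each window runs 5′ to 3′ on the gene's strand, ends at the base before the start, and has the match in capitals. Saa3 lies at chr7:46715677-46715926, minus strand, Cxcl10 at chr5:92348890-92349139, minus strand, Isg15 at chr4:156200819-156201068, minus strand, where 3 matches overlap, and Pilra at chr5:137836279-137836528, minus strand.
Saa3: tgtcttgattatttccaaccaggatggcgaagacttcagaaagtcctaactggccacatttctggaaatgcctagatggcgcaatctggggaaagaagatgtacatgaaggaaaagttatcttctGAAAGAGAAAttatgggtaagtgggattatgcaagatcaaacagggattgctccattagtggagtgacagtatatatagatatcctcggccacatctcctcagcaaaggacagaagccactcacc
Cxcl10: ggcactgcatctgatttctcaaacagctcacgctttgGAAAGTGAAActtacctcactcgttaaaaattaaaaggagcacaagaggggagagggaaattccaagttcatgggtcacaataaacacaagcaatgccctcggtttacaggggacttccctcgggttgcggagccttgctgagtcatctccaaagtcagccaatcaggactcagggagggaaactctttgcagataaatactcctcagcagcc
Isg15: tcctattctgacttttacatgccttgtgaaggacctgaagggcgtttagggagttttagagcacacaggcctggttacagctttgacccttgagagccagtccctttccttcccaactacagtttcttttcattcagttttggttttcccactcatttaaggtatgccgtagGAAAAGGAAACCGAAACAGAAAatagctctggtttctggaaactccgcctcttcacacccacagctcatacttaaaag
Pilra: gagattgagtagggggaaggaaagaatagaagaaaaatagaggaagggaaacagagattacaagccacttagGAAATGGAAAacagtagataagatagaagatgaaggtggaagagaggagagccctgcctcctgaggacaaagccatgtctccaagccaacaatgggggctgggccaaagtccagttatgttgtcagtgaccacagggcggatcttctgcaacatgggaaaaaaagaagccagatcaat

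The 4 genes shown were picked by the size of their increase, so their rise is a description and no result about the motif. Saa3, an acute phase protein, had 2.74, 2.76 and 3.38 FPKM in the untreated libraries and 258, 244 and 287 FPKM in the 12 h libraries. Cxcl10, a chemokine for T cells, rose from 2.31 ± 0.205 to 47.8 ± 0.299 FPKM, and Isg15, a ubiquitin-like modifier, from 7.73 ± 0.993 to 103 ± 8.48 FPKM. Pilra is taken up with the receptors below. All 3 libraries at 12 h lay above all 3 untreated libraries in each of the 4 genes, with log2 differences of 6.06, 3.88, 3.57 and 3.19.

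Metabolic genes moved in both directions. Over the metabolic lists 277 genes were tested, of which 143 rose, 111 fell and 23 did not pass the test, with a median log2 difference of 0.10. That is 51.6% higher and 40.1% lower, against 41.1% and 40.6% of all tested genes; quantile normalization reversed this balance, with 115 higher, 132 lower and a median of -0.06. The 285 listed metabolic genes made up 13.73% ± 0.02893 of the listed FPKM in untreated cells and 16.67% ± 0.1462 at 12 h. Fth1, which is among them, alone went from 2.886% to 5.914% and covers this gain, so the other metabolic genes together gained no share. By list median, tryptophan and NAD genes (0.77) stood highest, and amino acid transport (0.51) and iron and heme (0.52) followed. Fatty acid oxidation (-0.63) and the list for sterol storage, oxysterols and efflux (-0.39) stood at the lower end.

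**Figure D2:**
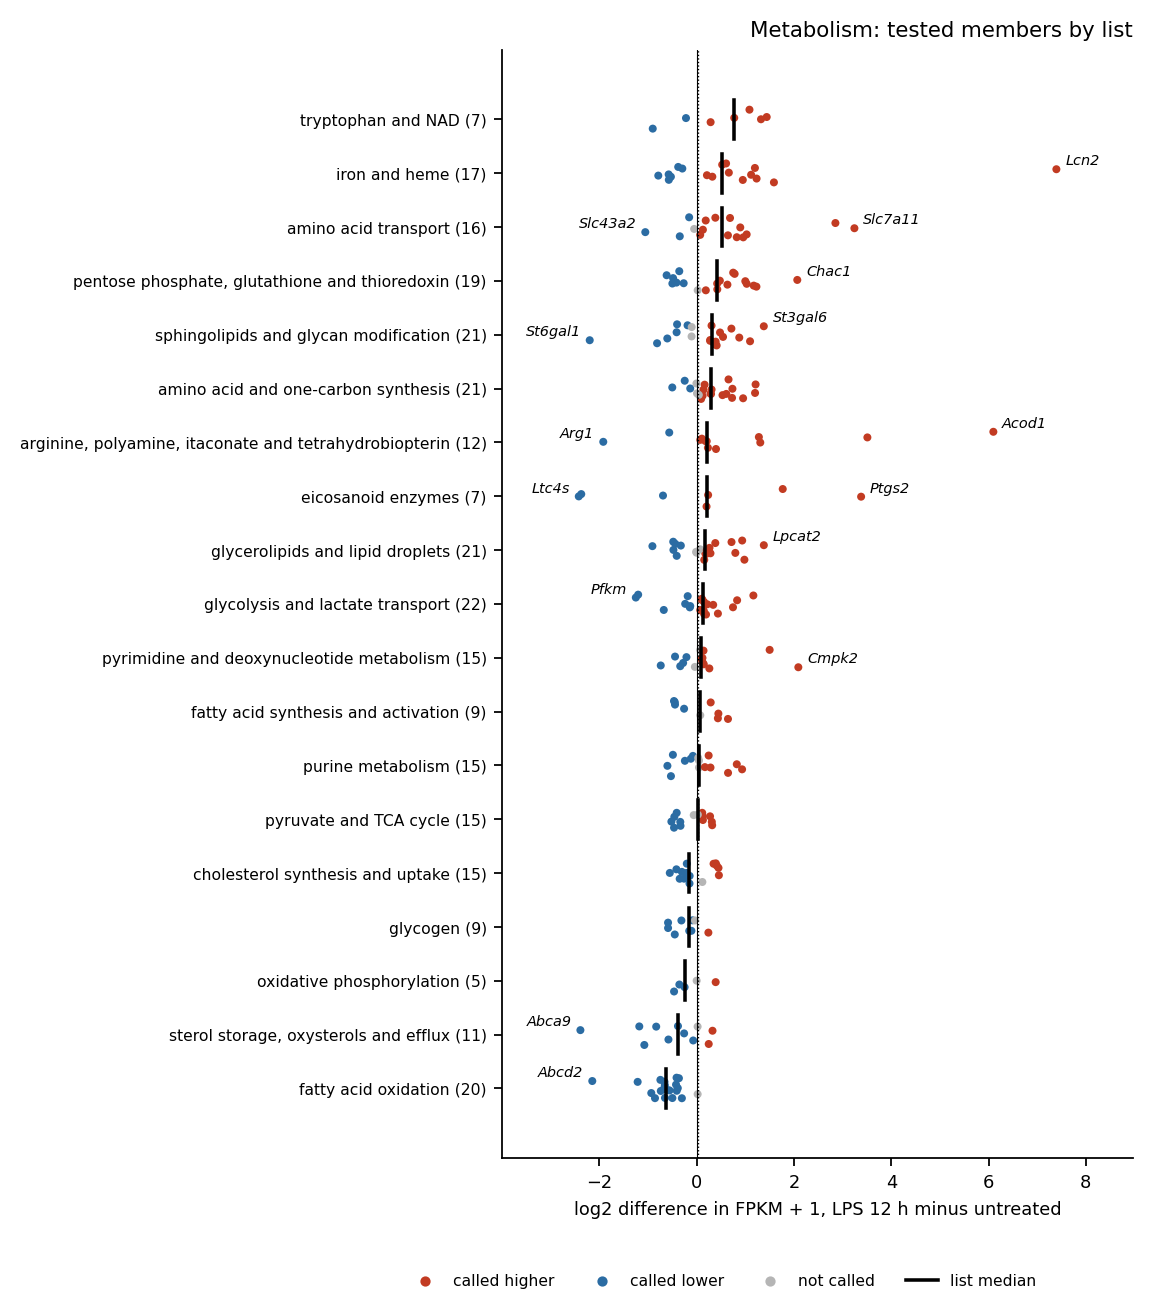
Each point is a tested gene of the metabolic list named at left (number of tested members in brackets), placed at its log2 difference in FPKM + 1, LPS 12 h minus untreated. Red is called higher, blue called lower, grey not called; the black bar is the list median and the dotted line the median of all tested genes (0.03). Fatty acid oxidation has no red point, and its median is -0.63.

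Acod1, which makes itaconate from cis-aconitate of the TCA cycle, had the largest increase of the metabolic genes after Lcn2. It had 7.47, 9.31 and 8.51 FPKM in the untreated libraries and 627, 617 and 688 FPKM in the 12 h libraries, with a mean of 125 FPKM at 1 h. Every 12 h library exceeded every untreated one, a log2 difference of 6.10 (SE 0.057) with a limma adjusted p of 6.18e-18. The list for arginine, polyamine, itaconate and tetrahydrobiopterin had 12 tested members, of which 10 rose and 2 fell. Its median log2 difference was 0.22, where 41.1% of all tested genes rose. Nos2, the inducible nitric oxide synthase, had 0.557, 0.801 and 0.929 FPKM in the untreated libraries and 19.3, 16.9 and 20.9 FPKM in the 12 h libraries. Arg1, which competes for the same arginine, had 4.55, 6.04 and 6.49 FPKM in the untreated libraries and 0.902, 0.661 and 0.706 FPKM in the 12 h libraries. The 2 enzymes thus moved in opposite directions, Nos2 up by 3.51 and Arg1 down to less than 1 FPKM, with no overlap of the groups in either. Gch1, the first enzyme for tetrahydrobiopterin, the cofactor of nitric oxide synthase, rose from 4.43 ± 0.537 to 12.1 ± 0.34 FPKM, while Pts, the next enzyme, fell from 16.2 ± 2.16 to 10.6 ± 0.333 FPKM. Odc1, the rate-limiting enzyme of polyamine synthesis, rose from 173 ± 4.53 to 429 ± 13.1 FPKM, and Sat1, which acetylates polyamines, from 84.8 ± 2.22 to 112 ± 6.25 FPKM.

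Transporters of amino acids and peptides mostly rose: of the 16 tested members, 12 rose, 3 fell and 1 did not pass the test (median log2 difference 0.51), where 41.1% of all tested genes rose. Quantile normalization gave 10 higher and 5 lower with a median of 0.48. Slc7a11, the cystine/glutamate exchanger, had 6.53, 6.81 and 6.77 FPKM in the untreated libraries and 72.5, 66.4 and 77.2 FPKM in the 12 h libraries. All 12 h values were several times the untreated ones, a log2 difference of 3.24 (SE 0.052). Its partner chain Slc3a2 (CD98), shared with the leucine carrier Slc7a5, rose from 37.2 ± 0.676 to 76.9 ± 3.41 FPKM, and Slc7a5 from 58.8 ± 1.29 to 105 ± 0.921 FPKM. Slc15a3, which exports peptides and histidine from endolysosomes, had 24.7, 26.3 and 25.4 FPKM in the untreated libraries and 188, 180.2 and 203 FPKM in the 12 h libraries. The groups did not overlap, and its mean at 1 h was 51.4 FPKM. The glycine carrier Slc6a9 rose by 0.96, and Slc43a2, a carrier of large neutral amino acids, fell from 7.65 ± 0.375 to 3.16 ± 0.211 FPKM.

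Enzymes that make amino acids and one-carbon units mostly rose too. The list for amino acid and one-carbon synthesis had 21 tested members, of which 15 rose, 3 fell and 3 did not pass the test (median log2 difference 0.28), where 41.1% of all tested genes rose. After quantile normalization the counts were 11 higher and 6 lower with a median of 0.10. Asns (asparagine synthetase) rose from 46.6 ± 2.11 to 108 ± 2.38 FPKM and the mitochondrial folate enzyme Mthfd2 from 48.5 ± 0.631 to 114 ± 3.57 FPKM. Psph, the last step of serine synthesis, rose from 6.27 ± 0.596 to 13.1 ± 1.12 FPKM, and Gpt2, Aldh1l2 and Bcat1 by 0.73, 0.73 and 0.65. Glul, which makes glutamine, fell from 38.4 ± 2.24 to 26.8 ± 1.09 FPKM, and the cytosolic folate enzyme Mthfd1 by 0.25 on the log2 scale. The list of aminoacyl-tRNA synthetases, which load amino acids onto tRNA, mostly rose against the same 41.1%. Of its 17 tested members, 14 rose, 0 fell and 3 did not pass the test (median log2 difference 0.37). Quantile normalization gave 12 higher and 3 lower with a median of 0.27. Aars, Sars, Wars and Cars rose most, by 1.07, 0.94, 0.84 and 0.81. In the pathway column of the authors' table, aminoacyl-tRNA biosynthesis held 24 tested members, of which 15 rose, 5 fell and 4 did not pass the test. Their median log2 difference was 0.24, and the lowest was -0.94.

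Genes listed here for glutathione, thioredoxin and NADPH were mostly higher, while the authors' own pathways were divided. The list for pentose phosphate, glutathione and thioredoxin had 19 tested members, of which 12 rose, 6 fell and 1 did not pass the test. Its median log2 difference was 0.42, where 41.1% of all tested genes rose. In the authors' pathway column, glutathione metabolism held 18 tested members, of which 10 rose and 8 fell (median log2 difference 0.09). The pentose phosphate pathway held 16, of which 6 rose, 9 fell and 1 did not pass the test (median log2 difference -0.12). Gsr, which regenerates glutathione, rose from 39.3 ± 1.59 to 79.6 ± 0.546 FPKM. The mitochondrial superoxide dismutase Sod2 rose from 34.9 ± 1.13 to 83 ± 2.7 FPKM. The peroxide enzymes sulfiredoxin (Srxn1) and peroxiredoxin 5 (Prdx5) rose by 1.17 and 1.03 on the log2 scale. Chac1, which breaks down glutathione, also rose, from 0.712 ± 0.093 to 6.18 ± 0.441 FPKM. The 2 subunits of the first enzyme of glutathione synthesis parted: the modifier subunit Gclm rose from 18.3 ± 0.531 to 32.1 ± 1.32 FPKM, and the catalytic subunit Gclc fell from 28.1 ± 0.278 to 17.9 ± 0.551 FPKM. Their log2 differences were 0.78 and -0.62, with no overlap between groups in either gene. Gsto1 and Gstm1, which conjugate glutathione, fell by 0.27 and 0.36 on the log2 scale.

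Iron and heme genes formed another group with more increases than decreases, with 17 tested members, of which 11 rose and 6 fell, where 41.1% of all tested genes rose. Besides Fth1, the siderophore-binding protein Lcn2 (lipocalin 2) had 0.607, 0.31 and 0.183 FPKM in the untreated libraries and 219, 210.1 and 254 FPKM in the 12 h libraries, the largest log2 difference of any tested gene. The iron importer Slc11a2 (DMT1) rose from 4.34 ± 0.575 to 15 ± 0.537 FPKM, and Alas1, the first enzyme of heme synthesis, from 12 ± 0.0817 to 28.8 ± 1.47 FPKM. Hmox1, which degrades heme, rose from 79.1 ± 1.83 to 154 ± 6.42 FPKM. The 2 biliverdin reductases parted: Blvrb rose from 8.64 ± 0.637 to 19.9 ± 1.26 FPKM, and Blvra fell from 99.4 ± 5.98 to 68.4 ± 1.52 FPKM. Ncoa4, the receptor that delivers ferritin to lysosomes, fell from 29.1 ± 0.857 to 16.4 ± 0.166 FPKM as Fth1 rose. Urod, a later enzyme of heme synthesis, fell by 0.57 on the log2 scale.

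The list for glycolysis and lactate transport had 22 tested members, of which 15 rose and 7 fell (median log2 difference 0.12), but quantile normalization reversed the majority, with 7 higher and 11 lower with a median of -0.12, so no direction is given for the pathway. The larger changes were in isoforms. The glucose carriers Slc2a1 and Slc2a6 rose from 67.6 ± 3.31 to 114 ± 7.8 FPKM and from 26.8 ± 0.592 to 61.4 ± 1.04 FPKM, whereas the carrier Slc2a3 fell from 8.28 ± 0.471 to 3.04 ± 0.39 FPKM. Hexokinase 3 (Hk3) rose from 36.2 ± 1.52 to 65.2 ± 3.0 FPKM, and the muscle-type phosphofructokinase Pfkm fell from 13.5 ± 0.608 to 5.09 ± 0.381 FPKM. Pdk1, the kinase that holds back pyruvate dehydrogenase, fell from 51.4 ± 2.75 to 31.8 ± 0.968 FPKM. The lactate exporter Slc16a3 rose by 0.44.

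The TCA cycle list was split, with 15 tested members, of which 7 rose, 6 fell and 2 did not pass the test. The mitochondrial isocitrate dehydrogenase Idh2 fell from 76.1 ± 3.43 to 54.8 ± 1.04 FPKM, and the succinate dehydrogenase subunit Sdha from 119.7 ± 2.28 to 89.8 ± 4.91 FPKM. The fumarase Fh1 and the cytosolic malate dehydrogenase Mdh1, which act on the next intermediates, fell by 0.33 and 0.52 on the log2 scale. Dld and Dlst, subunits of the 2-oxoglutarate dehydrogenase complex, rose by 0.32 and 0.27. Quantile normalization gave 3 higher and 11 lower with a median of -0.10. Of 28 oxidative phosphorylation genes in the list only 5 were tested, and they cannot describe the respiratory chain. Of these, 1 rose, 3 fell and 1 did not pass the test. Cytochrome c (Cycs) rose by 0.39 and the complex I subunit Ndufs1 fell by 0.47 on the log2 scale. The oxidative phosphorylation pathway of the authors' column held 30 tested members. Of those, 16 rose, 12 fell and 2 did not pass the test (median log2 difference 0.09).

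The list for fatty acid oxidation fell almost throughout, where 40.6% of all tested genes fell. Of its 20 tested members, 0 rose, 19 fell and 1 did not pass the test (median log2 difference -0.63). Acadm, the medium-chain acyl-CoA dehydrogenase, had 41.7, 41.5 and 43.5 FPKM in the untreated libraries and 20.2, 23.6 and 21.2 FPKM in the 12 h libraries. The ranges were far apart, a log2 difference of -0.93 (SE 0.046) with a limma adjusted p of 1.27e-10. Cpt1a, which admits long-chain fatty acids to mitochondria, had 3.08, 3.33 and 2.97 FPKM in the untreated libraries and 0.671, 0.902 and 0.765 FPKM in the 12 h libraries, and Cpt2, the next step, fell from 10.6 ± 0.41 to 6.35 ± 0.726 FPKM. Etfdh, which passes electrons from this pathway to ubiquinone, fell from 19.1 ± 0.176 to 10.1 ± 0.118 FPKM, and Hadh from 32.7 ± 1.59 to 19.2 ± 0.19 FPKM. Abcd2, a peroxisomal importer of fatty acids, had 8.78, 8.76 and 7.86 FPKM in the untreated libraries and 1.05, 1.17 and 1.18 FPKM in the 12 h libraries. It was the largest fall of the list at -2.15, with no overlap between the groups. In the authors' own pathway column, fatty acid degradation held 20 tested members, of which 4 rose, 14 fell and 2 did not pass the test. Its median log2 difference was -0.44, and 1 member rose and 1 fell by at least 2-fold. The peroxisome pathway held 36 tested members, of which 8 rose, 25 fell and 3 did not pass the test (median log2 difference -0.43). The degradation of valine, leucine and isoleucine, which shares late enzymes with fatty acid oxidation, held 23 tested members. Of these, 4 rose, 18 fell and 1 did not pass the test (median log2 difference -0.50).

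Listed genes of sterol storage, oxysterols and efflux mostly fell. That list had 11 tested members, of which 2 rose, 8 fell and 1 did not pass the test. Its median log2 difference was -0.39, where 40.6% of all tested genes fell. The cholesterol metabolism pathway of the authors' column went the other way, with 21 tested members and a median log2 difference of 0.11. Of these, 12 rose, 8 fell and 1 did not pass the test. Besides Apoe, the cholesterol exporter Abcg1 fell from 14.5 ± 0.271 to 9.37 ± 0.464 FPKM. The lysosomal acid lipase Lipa, which frees cholesterol from its esters, fell from 58.3 ± 2.37 to 32.3 ± 1.12 FPKM. Mylip, a ubiquitin ligase of sterol control, and the sterol 27-hydroxylase Cyp27a1 fell by 1.08 and 0.39 on the log2 scale. The lysosomal cholesterol carriers Npc1 and Npc2 were the exceptions, at 0.25 and 0.32. Abca9, an ABC transporter of macrophages, had 14.7, 14 and 13 FPKM in the untreated libraries and 1.84, 1.93 and 1.75 FPKM in the 12 h libraries. No library overlapped, and its log2 difference was -2.39; in the pathway column the ABC transporters held 18 tested members, of which 5 rose and 13 fell (median log2 difference -0.50). The cholesterol synthesis list was mixed, with 15 tested members, of which 5 rose, 9 fell and 1 did not pass the test. Fdps, which makes farnesyl diphosphate, rose from 97.8 ± 3.1 to 125 ± 3.47 FPKM, while Hmgcs1, an early enzyme of the pathway, fell by 0.55 on the log2 scale. Hmgcs1 stood at 44.9 FPKM at 1 h.

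Storage lipids and eicosanoids moved in part upward. The list for glycerolipids and lipid droplets had 21 tested members, of which 12 rose, 6 fell and 3 did not pass the test (median log2 difference 0.18). The lipid droplet proteins Plin2 and Hilpda rose from 26.6 ± 0.448 to 51.8 ± 1.91 FPKM and from 24.1 ± 1.85 to 40.2 ± 1.65 FPKM, and Lpcat2, which makes platelet-activating factor, from 4.0 ± 0.391 to 12 ± 0.798 FPKM. The lipoprotein lipase Lpl fell from 405 ± 12.2 to 305 ± 10.3 FPKM. In the eicosanoid list Ptgs2 (cyclooxygenase 2) rose from 5.4 ± 0.642 to 65.6 ± 7.11 FPKM while Ptgs1 (cyclooxygenase 1) fell from 19.4 ± 0.903 to 11.7 ± 0.661 FPKM. Ltc4s, which makes leukotriene C4, had 20.9, 17.1 and 17.1 FPKM in the untreated libraries and 2.35, 2.95 and 2.49 FPKM in the 12 h libraries, and Ephx1 (epoxide hydrolase 1) fell from 14.4 ± 0.15 to 1.98 ± 0.151 FPKM. Every 12 h library lay far below every untreated one in Ltc4s and in Ephx1, with log2 differences of -2.42 and -2.37.

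Enzymes that add sialic acid to glycans went both ways. St6gal1, which adds α2,6-linked sialic acid, had 16, 14.6 and 15.1 FPKM in the untreated libraries and 2.6, 2.3 and 2.69 FPKM in the 12 h libraries. St3gal6, which adds α2,3-linked sialic acid, had 1.55, 1.35 and 1.86 FPKM in the untreated libraries and 5.35, 5.92 and 5.87 FPKM in the 12 h libraries. St6gal1 fell by 2.20 and St3gal6 rose by 1.38 on the log2 scale, with no overlap in either, within a list of 21 tested members, of which 13 rose, 6 fell and 2 did not pass the test. Degs1, the last step of ceramide synthesis, rose from 42.8 ± 0.981 to 92.8 ± 4.17 FPKM. Cd38, an ectoenzyme that consumes NAD, rose from 3.4 ± 0.0922 to 10.04 ± 1.07 FPKM and Nadk, which phosphorylates NAD, from 59.9 ± 1.19 to 128 ± 0.283 FPKM. Nampt, the salvage enzyme of NAD, rose by 0.29. The tryptophan and NAD list had 7 tested members, of which 5 rose and 2 fell. In nucleotide metabolism Cmpk2, the mitochondrial kinase for pyrimidine nucleotides, rose from 1.25 ± 0.11 to 8.59 ± 0.943 FPKM, and thymidine kinase Tk1 fell from 11.7 ± 0.98 to 6.59 ± 0.293 FPKM.

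Surface receptors were about evenly divided. Over the receptor lists 175 genes were tested, of which 82 rose, 75 fell and 18 did not pass the test; their median log2 difference was 0.07. That is 46.9% higher and 42.9% lower, near the 41.1% and 40.6% of all tested genes. The 210 listed receptor genes made up 2.472% ± 0.04381 of the listed FPKM in untreated cells and 2.431% ± 0.03856 at 12 h. C-type lectins and the receptors for antibodies and complement had the highest list medians, and other G protein-coupled receptors the lowest.

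**Figure D3:**
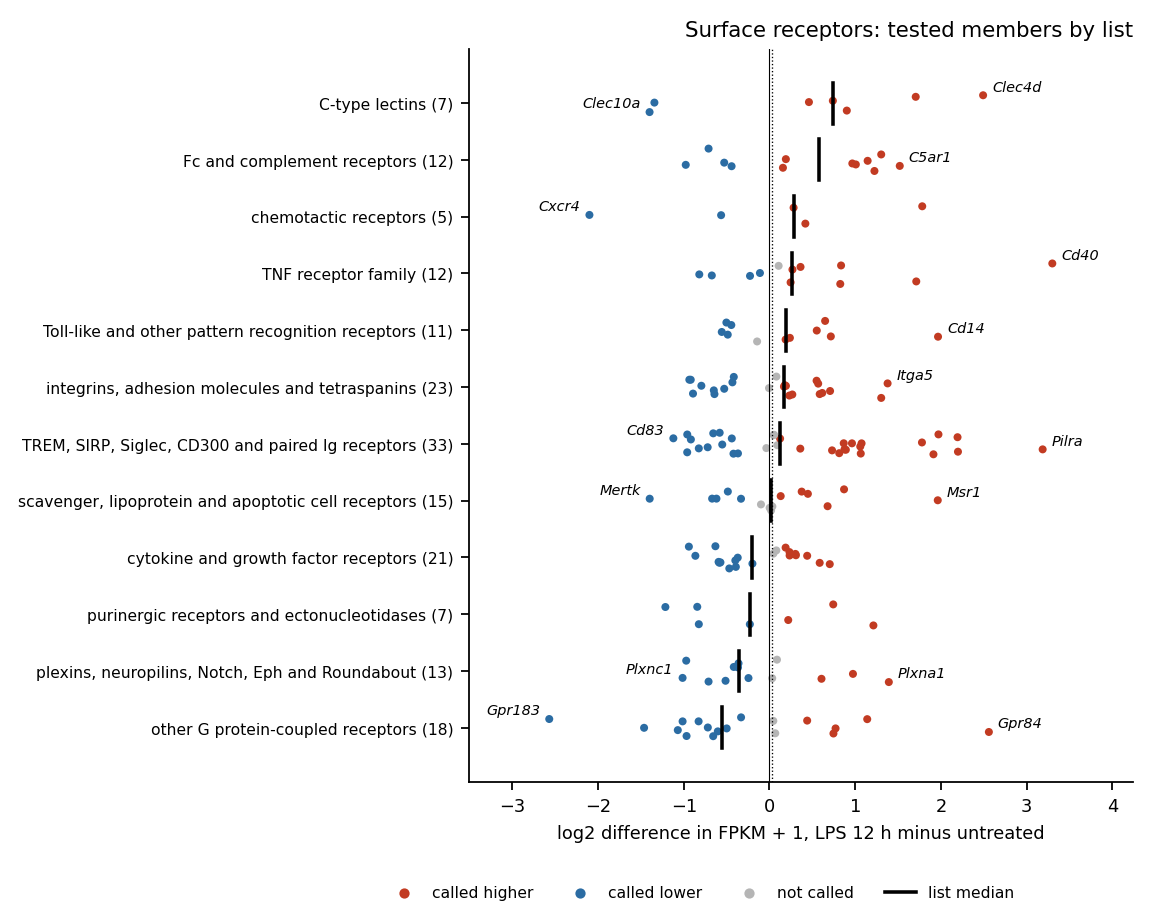
Tested surface receptors by list, placed at the log2 difference in FPKM + 1, LPS 12 h minus untreated, with list medians as black bars and the median of all tested genes dotted; red is called higher, blue called lower, grey not called. The lists run from C-type lectins (median 0.74) at the top to other G protein-coupled receptors (-0.55) at the bottom, and Cd40 and Pilra lie farthest right.

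Among the pattern recognition receptors, the LPS co-receptor Cd14 had 63, 61.5 and 62.3 FPKM in the untreated libraries and 242, 229 and 269.8 FPKM in the 12 h libraries. All 12 h libraries lay above the untreated ones, and the mean at 1 h was 182 FPKM. Tlr2, which senses bacterial lipoproteins, was at 25.3 FPKM untreated, 188 FPKM at 1 h and 40.2 FPKM at 12 h, and Tlr9, for CpG DNA, rose by 0.55. The endosomal RNA sensors Tlr7 and Tlr13 fell from 61.5 ± 0.816 to 43.6 ± 0.684 FPKM and from 52 ± 0.487 to 35.1 ± 1.41 FPKM, as did Cd180 and its partner Ly86, by 0.45 and 0.50 on the log2 scale. The list as a whole had 11 tested members, of which 6 rose, 4 fell and 1 did not pass the test (median log2 difference 0.19).

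C-type lectins went both ways. Clec4d and Clec4e (Mincle), which pair to sense mycobacterial glycolipids, rose from 33.5 ± 1.96 to 194 ± 17.5 FPKM and from 11.2 ± 0.847 to 38.8 ± 2.01 FPKM. Clec7a (dectin 1), the receptor for fungal β-glucan, fell from 14 ± 0.868 to 4.9 ± 0.473 FPKM, and the galactose-type lectin Clec10a from 6.47 ± 0.943 to 1.82 ± 0.261 FPKM. The list held 7 tested members, of which 5 rose and 2 fell.

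Receptors for antibodies and complement had 12 tested members, of which 8 rose and 4 fell, where 41.1% of all tested genes rose. Their median log2 difference was 0.58. Itgam (CD11b, the α chain of complement receptor 3) had 27.2, 28.5 and 28 FPKM in the untreated libraries and 71, 67.6 and 72.4 FPKM in the 12 h libraries. The groups were far apart, a log2 difference of 1.30 (SE 0.044), while Itgax (CD11c) fell from 5.7 ± 0.473 to 3.64 ± 0.30 FPKM. The anaphylatoxin receptors C5ar1 and C3ar1 rose from 16 ± 0.806 to 47.8 ± 3.03 FPKM and from 24.4 ± 0.504 to 48.6 ± 1.42 FPKM. Fcgr1, Fcgr4 and the inhibitory Fcgr2b rose by 1.01, 1.14 and 1.22, whereas Fcgr3 fell from 82 ± 5.09 to 60.1 ± 4.27 FPKM and Fcgrt, which recycles IgG, from 5.12 ± 0.516 to 2.11 ± 0.219 FPKM.

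Pilra had the largest increase of the receptors after Cd40. Pilra is an inhibitory receptor for sialylated ligands, and it had 2.39, 1.77 and 2.52 FPKM in the untreated libraries and 27.4, 26.7 and 30.7 FPKM in the 12 h libraries. No 12 h value came near an untreated one, and its mean at 1 h was 1.59 FPKM. Its activating counterparts Pilrb1 and Pilrb2 rose from 0.231 ± 0.0641 to 4.65 ± 0.22 FPKM and from 0.291 ± 0.0442 to 4.91 ± 0.165 FPKM; these 2 genes are close copies, and how reads were shared between them is not stated. Siglec1, the sialic acid receptor of macrophages, had 3.2, 3.34 and 3.43 FPKM in the untreated libraries and 16.3, 14.9 and 16.7 FPKM in the 12 h libraries. Again the groups were apart, with 2.39 FPKM at 1 h. The inhibitory receptors Lilrb4a and Lilr4b, also close copies, rose from 61.7 ± 2.96 to 214 ± 5.84 FPKM and from 18.8 ± 3.6 to 73 ± 9.21 FPKM. Trem2, the lipid-sensing receptor of microglia, had 93.1, 90.7 and 87.8 FPKM in the untreated libraries and 45.8, 47.3 and 49.3 FPKM in the 12 h libraries. Its 12 h values all lay below the untreated ones, and its adaptor Tyrobp fell from 559.8 ± 30.5 to 412 ± 15.2 FPKM. Trem3 and Cd300lf rose by 1.07 and 1.06, and Cd33, Cd84, Vsir (VISTA) and Cd300lb fell by 0.66, 0.96, 0.72 and 0.82 on the log2 scale. Cd83 was high at 1 h (86.7 FPKM) and lower at 12 h (6.76 FPKM) than without LPS (15.9 FPKM). Of the list's 33 tested members, 17 rose, 12 fell and 4 did not pass the test.

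In the TNF receptor family Cd40, which receives the T cell signal CD40L, had 1.11, 1.05 and 1.03 FPKM in the untreated libraries and 19.7, 18.9 and 19.3 FPKM in the 12 h libraries. Tnfrsf1b (TNF receptor 2) rose from 26.3 ± 1.47 to 88.4 ± 6.08 FPKM, and Tnfrsf1a (TNF receptor 1) went from 31.1 ± 0.643 to 28.7 ± 0.602 FPKM. The call of Tnfrsf1a was lost in limma without untreated library 1 or 2 or without 12 h library 3, at adjusted p of 0.0579 to 0.0661. Tnfrsf11a (RANK), the receptor for osteoclast formation, fell from 6.51 ± 0.28 to 3.72 ± 0.383 FPKM. The list had 12 tested members, of which 7 rose, 4 fell and 1 did not pass the test.

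Cytokine and growth factor receptors had 21 tested members, of which 8 rose, 11 fell and 2 did not pass the test (median log2 difference -0.20). Il6ra, the IL-6 receptor, fell from 21 ± 1.53 to 10.5 ± 0.821 FPKM, and Il10ra, the IL-10 receptor, from 7.47 ± 0.968 to 3.64 ± 0.28 FPKM. The chains of the interferon-γ receptor parted, with Ifngr1 lower, from 16.3 ± 0.477 to 10.1 ± 0.359 FPKM, and Ifngr2 higher, from 39.3 ± 1.95 to 48.9 ± 1.86 FPKM. Csf1r, the survival receptor of microglia, fell from 66.1 ± 2.76 to 47.5 ± 1.03 FPKM. The IL-4 and IL-13 receptor chains Il4ra and Il13ra1 rose from 3.07 ± 0.173 to 5.63 ± 0.204 FPKM and from 17.5 ± 0.672 to 24.1 ± 1.8 FPKM. Met and Flt1 (VEGF receptor 1) rose by 0.59 and 0.30.

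Gpr183 (EBI2), the receptor for 7α,25-dihydroxycholesterol, had 18.6, 18 and 18.9 FPKM in the untreated libraries and 2.05, 2.39 and 2.43 FPKM in the 12 h libraries. Every 12 h library was below every untreated one, a log2 difference of -2.57 (SE 0.059) with a limma adjusted p of 3.29e-14. Cxcr4, the receptor for CXCL12, had 5.97, 5.65 and 4.63 FPKM in the untreated libraries and 0.463, 0.456 and 0.553 FPKM in the 12 h libraries. Its 12 h libraries were all below 1 FPKM and did not overlap the untreated ones, but the list of chemotactic receptors it belongs to had 5 tested members, of which 3 rose and 2 fell (median log2 difference 0.28). The sphingosine 1-phosphate receptor S1pr1 fell from 3.12 ± 0.172 to 0.493 ± 0.0475 FPKM, and the fractalkine receptor Cx3cr1 from 6.27 ± 0.407 to 3.93 ± 0.49 FPKM. Cysltr1, for cysteinyl leukotrienes, fell by 1.07, and the lysophosphatidic acid receptors Lpar5 and Lpar6 by 0.97 and 1.01 on the log2 scale. Gpr84, for medium-chain fatty acids, rose from 3.28 ± 0.342 to 24.2 ± 0.331 FPKM, and Hcar2, for β-hydroxybutyrate and niacin, from 21.8 ± 1.2 to 49.2 ± 1.68 FPKM. Other G protein-coupled receptors had 18 tested members, of which 5 rose, 11 fell and 2 did not pass the test (median log2 difference -0.55), where 40.6% of all tested genes fell. Under the annotation in the deposited table, the 42 tested genes of G protein-coupled receptor activity were 15 higher, 25 lower and 2 not called. Among nucleotide receptors P2ry2 rose from 4.92 ± 0.323 to 12.7 ± 0.575 FPKM and P2rx7, the ATP-gated channel behind inflammasome activation, fell from 8.16 ± 0.165 to 4.11 ± 0.163 FPKM.

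Receptors for lipoproteins and dying cells were divided, with 15 tested members, of which 6 rose, 5 fell and 4 did not pass the test. Msr1 (scavenger receptor A) rose from 0.745 ± 0.0801 to 5.81 ± 0.567 FPKM. Mertk, which recognises apoptotic cells through bridging proteins, had 2.72, 2.87 and 2.35 FPKM in the untreated libraries and 0.452, 0.472 and 0.233 FPKM in the 12 h libraries. The 12 h values were all under 1 FPKM and did not overlap. Lrp1 and Scarb2 fell by 0.62 and 0.67 on the log2 scale. Quantile normalization changed the counts to 5 higher and 6 lower with a median of -0.06.

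Integrin chains went both ways. Itga5, the fibronectin receptor chain, rose from 7.7 ± 0.405 to 21.6 ± 1.55 FPKM, while Itga4 fell from 48 ± 1.81 to 25.4 ± 1.34 FPKM, Itga6 from 21.4 ± 0.314 to 10.8 ± 0.541 FPKM and the pair Itgav and Itgb5 by 0.64 and 0.79 on the log2 scale. Icam1, a ligand of leukocyte integrins, was at 16.3 FPKM untreated, 84.5 FPKM at 1 h and 25.5 FPKM at 12 h. The integrin and adhesion list had 23 tested members, of which 12 rose, 9 fell and 2 did not pass the test. Of the semaphorin and axon guidance receptors Plxna1 and Nrp2 rose from 6.02 ± 0.346 to 17.4 ± 0.212 FPKM and from 34.3 ± 0.519 to 68.4 ± 2.29 FPKM, and Plxnc1 fell from 13.6 ± 0.496 to 6.25 ± 0.0273 FPKM. That list had 13 tested members, of which 3 rose, 8 fell and 2 did not pass the test (median log2 difference -0.36).

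Transcription factors were divided as well. Of 174 tested members of the factor lists, 66 rose, 82 fell and 26 did not pass the test; their median log2 difference was -0.03. That is 37.9% higher and 47.1% lower, against 41.1% and 40.6% of all tested genes, and quantile normalization gave 76 higher and 80 lower. The 195 listed factors took 1.447% ± 0.006118 of the listed FPKM in untreated cells, 2.009% ± 0.02656 at 1 h and 1.535% ± 0.007869 at 12 h. The authors' table assigns 369 tested genes to a factor family, and of these 104 were higher, 195 lower and 70 not called. In that column basic leucine zipper genes held 29 tested members, of which 19 rose, 9 fell and 1 did not pass the test (median log2 difference 0.22). Zinc finger genes of the C2H2 type held 112 tested members, of which 20 rose, 62 fell and 30 did not pass the test (median log2 difference -0.20), and after quantile normalization 30 higher and 49 lower with a median of -0.08. The basic helix-loop-helix genes held 26 tested members, of which 5 rose, 17 fell and 4 did not pass the test (median log2 difference -0.42).

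**Figure D4:**
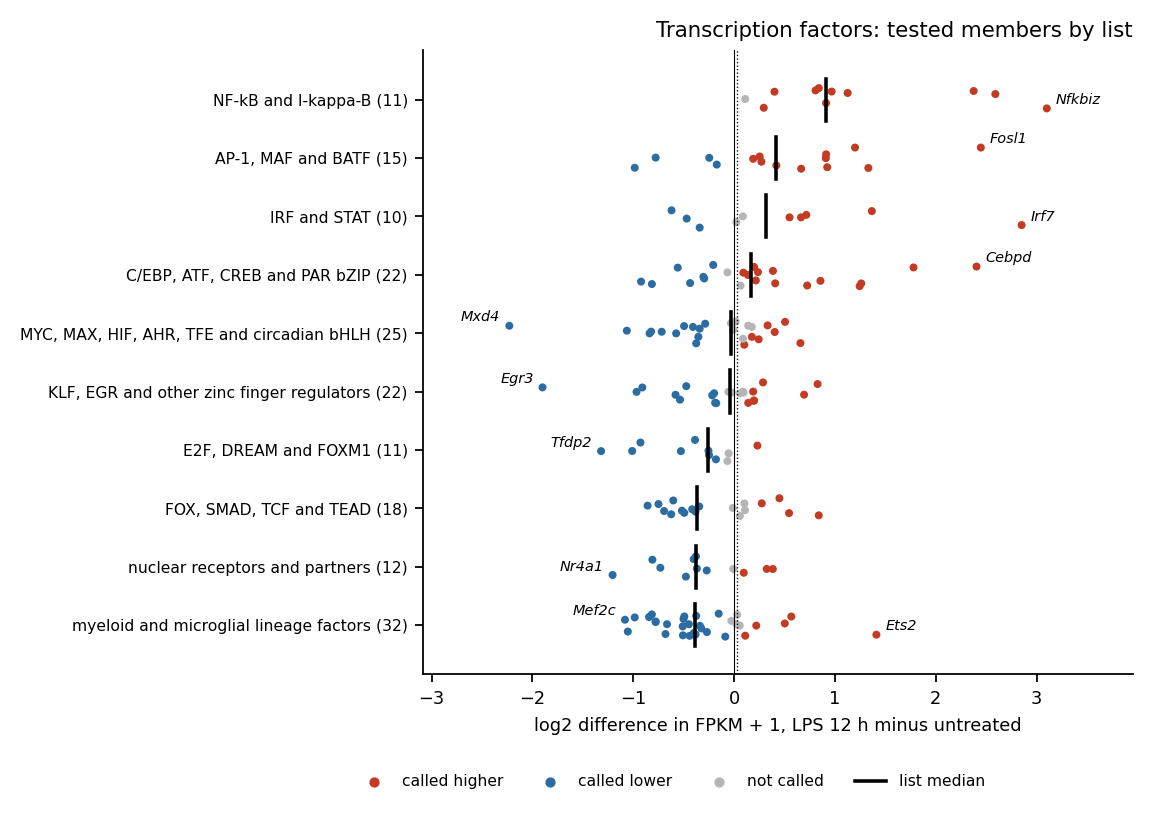
Tested transcription factors by list, placed at the log2 difference in FPKM + 1, LPS 12 h minus untreated, with list medians as black bars and the median of all tested genes dotted; red is called higher, blue called lower, grey not called. NF-κB and I-κB genes have the highest median (0.91) and no blue point, and the myeloid and microglial lineage factors have mostly blue points.

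The factors of the acute response were mostly above their untreated level at 12 h. The NF-κB and I-κB list had 11 tested members, of which 10 rose, 0 fell and 1 did not pass the test, where 41.1% of all tested genes rose. Bcl3, a coactivator of p50 and p52, rose from 1.42 ± 0.138 to 13.6 ± 0.169 FPKM, and Nfkbiz (I-κBζ) from 3.37 ± 0.356 to 36.5 ± 2.6 FPKM after 293 FPKM at 1 h. Rela, the main activating subunit, went from 14.6 ± 1.18 to 15.8 ± 0.747 FPKM and did not pass the test, but did so without untreated library 3 (limma adjusted p 0.0129). Among interferon regulatory factors and STATs, Irf7 had 8.58, 10.7 and 9.76 FPKM in the untreated libraries and 78.1, 69.3 and 80.4 FPKM in the 12 h libraries. Its 1 h mean was 9.81 FPKM, within the range of the untreated libraries. Irf9, a DNA-binding subunit of the interferon-activated complex, rose from 6.51 ± 0.42 to 10.9 ± 1.15 FPKM. Stat3 rose by 0.72, whereas Stat6, the IL-4 signal transducer, and Stat5b fell by 0.34 and 0.47 on the log2 scale. That list had 10 tested members, of which 5 rose, 3 fell and 2 did not pass the test.

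Basic leucine zipper factors of the AP-1, C/EBP and ATF groups gave large increases. Fosl1 (Fra-1) had 1.22, 1.78 and 2.49 FPKM in the untreated libraries and 14, 13.8 and 14.6 FPKM in the 12 h libraries, and Cebpd had 7.64, 7.3 and 7.03 FPKM in the untreated libraries and 43.6, 40.9 and 44.7 FPKM in the 12 h libraries. Neither overlapped between groups, with log2 differences of 2.45 and 2.40. Cebpb rose from 137 ± 8.42 to 249 ± 7.38 FPKM while Cebpa, the factor of myeloid differentiation, fell from 6.44 ± 0.332 to 3.23 ± 0.219 FPKM. Atf4, the effector of the integrated stress response, known to act on Asns, Chac1 and tRNA synthetase genes, had 200.2, 195 and 199 FPKM in the untreated libraries and 474, 474 and 481 FPKM in the 12 h libraries. Its relatives Atf5 and Ddit3 (CHOP) rose from 5.6 ± 0.367 to 14.6 ± 0.121 FPKM and from 1.18 ± 0.0573 to 6.49 ± 0.551 FPKM. Junb and Jund stood at 71.2 and 50.7 FPKM at 12 h, above 37.4 and 26.5 FPKM untreated and below 221 and 76.5 FPKM at 1 h. Nfe2l1 (NRF1), a regulator of proteasome genes, rose from 17.6 ± 0.965 to 41.6 ± 0.674 FPKM. The pathway column gave 34 of 37 tested proteasome genes higher and 0 lower, where 41.1% of all tested genes rose. Quantile normalization gave 19 higher and 5 lower with a median of 0.08, and a link of these genes to Nfe2l1 was not tested. Against the same 41.1%, the AP-1 and MAF list had 15 tested members, of which 11 rose and 4 fell. The C/EBP, ATF and CREB list had 22 tested members, of which 13 rose, 7 fell and 2 did not pass the test.

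Lineage factors fell for the most part: of the 32 tested members, 5 rose, 23 fell and 4 did not pass the test (median log2 difference -0.39), where 40.6% of all tested genes fell. Mef2c, a factor of microglial identity, had 21.6, 22.8 and 23.3 FPKM in the untreated libraries and 10.2, 10.3 and 9.87 FPKM in the 12 h libraries. It was lower in every 12 h library, with a log2 difference of -1.08 (SE 0.040). Maf, a large MAF factor of macrophages, fell from 8.09 ± 0.519 to 4.32 ± 0.625 FPKM. Bhlhe40 and Bhlhe41, repressors that act in tissue macrophages, fell from 24.7 ± 1.57 to 13.3 ± 0.429 FPKM and from 18.8 ± 0.69 to 8.57 ± 0.613 FPKM. Mitf, Runx1, Id2 and Lmo2 fell by 0.66, 0.51, 0.68 and 0.78 on the log2 scale. Spi1 (PU.1), the master factor of macrophages, went the other way, from 62.7 ± 1.63 to 89.3 ± 1.31 FPKM, and Ets2 rose from 19.1 ± 0.269 to 52.5 ± 1.01 FPKM.

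Of helix-loop-helix factors that partner MAX or act on growth and metabolism, the list had 25 tested members, of which 7 rose, 12 fell and 6 did not pass the test. Mxd4, a MAX partner that represses MYC targets, had 9.96, 8.08 and 8.83 FPKM in the untreated libraries and 1.17, 1.15 and 1.04 FPKM in the 12 h libraries. The 12 h libraries lay far below, a log2 difference of -2.23 (SE 0.11), and Mxi1 and Mnt fell by 0.82 and 0.50 on the log2 scale. Tfeb, which drives lysosome and autophagy genes, had 4.98, 4.2 and 4.73 FPKM in the untreated libraries and 1.98, 1.78 and 1.35 FPKM in the 12 h libraries. It was lower in every 12 h library, by 1.06 on the log2 scale. Hif1a rose from 41.3 ± 1.9 to 59 ± 1.06 FPKM while its relative Epas1 (HIF-2α) fell from 5.26 ± 0.142 to 2.81 ± 0.199 FPKM. Nuclear receptors had 12 tested members, of which 3 rose, 8 fell and 1 did not pass the test. Their median log2 difference was -0.37, where 40.6% of all tested genes fell. The retinoid partner Rxra fell from 28.7 ± 0.971 to 16.9 ± 0.652 FPKM and the clock repressor Nr1d2 from 5.32 ± 0.447 to 2.6 ± 0.0668 FPKM. The FOX and SMAD list had 18 tested members, of which 4 rose, 10 fell and 4 did not pass the test, and after quantile normalization 7 higher and 11 lower with a median of -0.29. Foxo1 and Foxo4 fell by 0.75 and 0.62, and the Notch effector Rbpj rose from 29.5 ± 0.649 to 53.5 ± 0.913 FPKM. A pair of early genes ended below their untreated level: Egr3 was at 4.44, 17.6 and 0.458 FPKM and Nr4a1 was at 3.06, 28.9 and 0.762 FPKM (untreated, 1 h, 12 h).

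**Figure D5:**
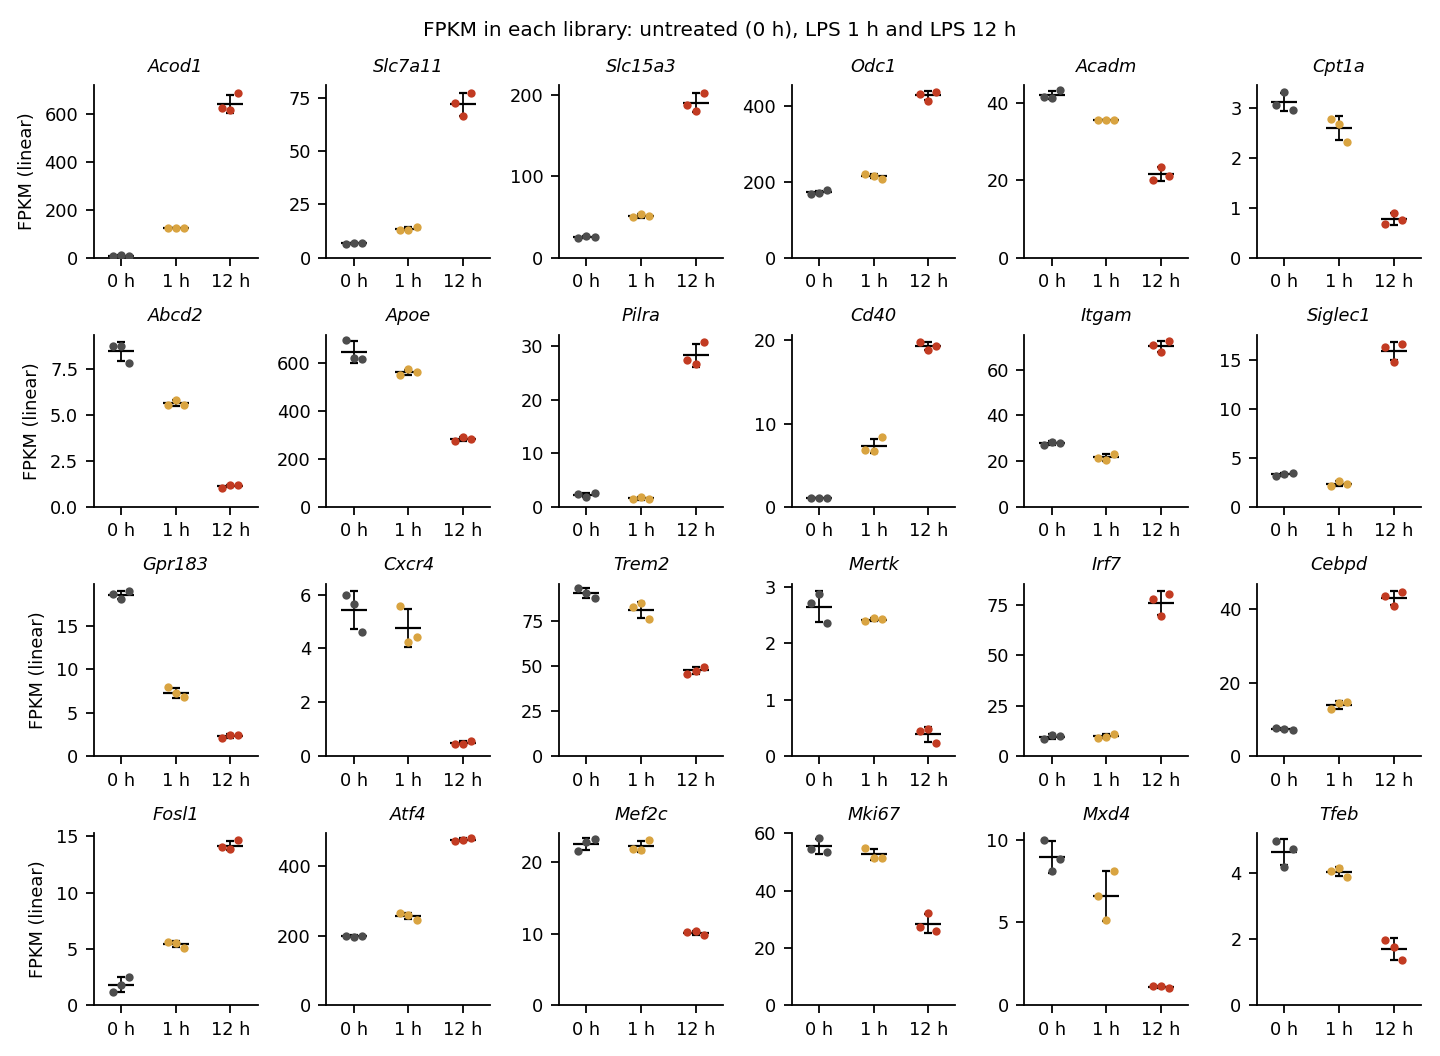
FPKM of 24 genes named in the text in each of the 9 libraries, by hours of LPS (0 h, 1 h and 12 h); points are libraries, bars are group means, and every vertical axis starts at 0 with its own scale. In all 24 genes the 12 h points lie apart from the 0 h points, which was a condition for most of them to be named. The 1 h mean of Gpr183 lies nearer the 12 h level, that of the other genes nearer the untreated level.

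Most listed genes of mitosis and DNA replication were lower at 12 h. The list for G2/M and mitosis had 29 tested members, of which 0 rose, 28 fell and 1 did not pass the test (median log2 difference -0.50), where 40.6% of all tested genes fell. Mki67, the proliferation antigen, had 54.5, 58.5 and 53.4 FPKM in the untreated libraries and 27.4, 32.2 and 25.9 FPKM in the 12 h libraries. Its 12 h values all lay below the untreated ones. Ccnb2 (cyclin B2) fell from 70.2 ± 0.379 to 38 ± 0.769 FPKM, and the kinetochore and spindle proteins Cenpf and Nusap1 by 1.04 and 1.02 on the log2 scale. The mitotic kinase Aurka went from 57.6 ± 1.62 to 56.8 ± 0.634 FPKM and did not pass the test, except after quantile normalization (log2 difference -0.17). The S phase and replication list had 25 tested members, of which 4 rose, 18 fell and 3 did not pass the test (median log2 difference -0.29), and after quantile normalization 2 higher and 19 lower with a median of -0.39. A pair of pocket proteins that hold the cycle back, Rb1 and Rbl2, fell as well, from 7.52 ± 0.408 to 3.47 ± 0.0537 FPKM and from 6.99 ± 0.205 to 2.97 ± 0.245 FPKM, and so did the E2F partner Tfdp2, from 7.91 ± 0.678 to 2.57 ± 0.126 FPKM, in a factor list with 11 tested members, of which 1 rose, 8 fell and 2 did not pass the test. The broader cell cycle pathway of the pathway column was less uniform, with 73 tested members and a median log2 difference of -0.22. Of these, 23 rose, 39 fell and 11 did not pass the test. The same column gave 26 of 29 tested DNA replication genes lower and 2 higher, and 18 of 20 Fanconi anemia pathway genes lower and 0 higher. In bulk RNA, fewer dividing cells and less of these transcripts per cell cannot be told apart.

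The cell cycle homology region (CHR) TTTGAA, a promoter element of G2/M genes, was searched in the same windows on both strands. It stood in 40.0% of 25 windows of the G2/M genes, 10.7% of the windows of all tested genes and 15.99% of all RefSeq windows. The windows of the 2 genes of the list with the largest fall among those holding a match are shown with the match in capitals, Mki67 at chr7:135716380-135716629, minus strand, with 2 matches, and Ccnb2 at chr9:70421555-70421804, minus strand.
Mki67: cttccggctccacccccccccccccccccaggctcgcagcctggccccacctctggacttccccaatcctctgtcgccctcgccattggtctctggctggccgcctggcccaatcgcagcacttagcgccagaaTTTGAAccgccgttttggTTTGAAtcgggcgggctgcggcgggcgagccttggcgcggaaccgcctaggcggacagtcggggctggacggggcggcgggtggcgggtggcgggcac
Ccnb2: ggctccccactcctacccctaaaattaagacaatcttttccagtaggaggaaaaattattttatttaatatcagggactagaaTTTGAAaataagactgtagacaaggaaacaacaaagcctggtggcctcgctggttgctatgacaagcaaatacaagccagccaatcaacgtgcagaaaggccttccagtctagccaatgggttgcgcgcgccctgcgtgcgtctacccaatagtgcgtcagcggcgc

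Secreted proteases and their inhibitors mostly rose, with 19 tested members, of which 15 rose, 2 fell and 2 did not pass the test, where 41.1% of all tested genes rose. Slpi, an inhibitor of neutrophil elastase, had 12.9, 11.2 and 10.5 FPKM in the untreated libraries and 153, 144 and 166 FPKM in the 12 h libraries. The urokinase receptor Plaur rose from 33 ± 1.51 to 115 ± 8.59 FPKM, whereas urokinase itself, Plau, was at 56.5 FPKM untreated, 133 FPKM at 1 h and 38 FPKM at 12 h. Mmp12, the macrophage metalloelastase, rose from 3.15 ± 0.599 to 10.6 ± 1.62 FPKM, and the collagenase Mmp13 from 0.502 ± 0.109 to 5.01 ± 1.53 FPKM. Adam8, a membrane metalloprotease, rose by 1.29, and the metalloprotease inhibitor Timp2 fell from 15 ± 1.62 to 8.34 ± 0.303 FPKM. Of the 3 complement components tested, C3 rose from 1.7 ± 0.29 to 11.5 ± 0.119 FPKM and properdin (Cfp) from 21.8 ± 0.633 to 47.4 ± 0.969 FPKM, and C1qc fell from 5.48 ± 1.72 to 1.26 ± 0.312 FPKM.

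Lysosomal genes moved both ways. The list for lysosomal hydrolases and membrane proteins had 25 tested members, of which 13 rose, 10 fell and 2 did not pass the test (median log2 difference 0.07), and quantile normalization reversed the balance, with 9 higher and 14 lower with a median of -0.13. Ctsb and Ctsz, cathepsins B and Z, rose from 358 ± 6.08 to 557 ± 6.84 FPKM and from 554 ± 5.9 to 806 ± 8.33 FPKM. Ctsf and Ctsh, cathepsins F and H, fell from 5.99 ± 0.348 to 1.67 ± 0.355 FPKM and from 10.7 ± 0.957 to 4.11 ± 0.169 FPKM, and Lgmn (legumain) from 295 ± 8.21 to 198 ± 1.6 FPKM. The membrane protein Laptm5 and the mannosidase Man2b1 fell by 0.98 and 0.89 on the log2 scale. Phagosome genes of the pathway column were mostly higher, with 80 tested members, of which 65 rose, 11 fell and 4 did not pass the test (median log2 difference 0.30), where 41.1% of all tested genes rose. So were those of protein processing in the endoplasmic reticulum, with 96 tested members, of which 68 rose, 9 fell and 19 did not pass the test (median log2 difference 0.21).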

How the data were processed

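RNA from 9 libraries of BV2 cells was measured, 3 each untreated, after 1 h and after 12 h with LPS. Per the labels' protocols, libraries were made with a stranded mRNA kit. The authors deposited 1 table of FPKM per gene; the submitters' processing notes name Trimmomatic, HISAT2 and Cufflinks, and also HTSeq and DESeq, with no version or role, and GRCh38, a human build, although the genes are mouse genes. The build behind the values is therefore not certain, and GRCm38.p6 coordinates come from RefSeq only. The authors' deposited p-value and q-value columns, the score that ranks genes and the flag were not used; the flag is 1 for every gene and the largest q-value is 0.09993, so listed genes had been selected on these samples. The number of reads is not given, so no depth or interval from counts is stated.

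FPKM was taken as log2(FPKM + 1) with no further scaling. Genes with a mean of at least 1 FPKM were kept, 5643, and 819 were left out. Limma 3.58.1 in R 4.3.3 fitted 3 group means to all 9 libraries, with eBayes and a trend, and p-values were adjusted over the 5643 genes by the Benjamini-Hochberg method at 0.05. Lists got no test of their own. Their counts are descriptions, to be read against the shares of all tested genes, 41.1% higher and 40.6% lower. These shares stand beside the first counts of the metabolic, receptor, factor and cell cycle genes, and beside most counts given a direction. The members and lists were chosen with earlier results of these data known, as were the motifs.

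Named per list were up to 6 called members with the largest difference in each direction, with groups that do not overlap and at least 5 FPKM in the higher group, and up to 2 abundant members that did not pass; over all genes, ranks 11 to 30 in each direction, the 10 largest FPKM differences each way and the title's genes. Cpt1a, Egr3, Id2, Lmo2, Lyz2, Mertk, Mitf, Nr4a1, Pilrb1, Pilrb2, Runx1, S1pr1, Saa3, Selenbp1 and Tfeb fall outside this rule and were added after their values were seen. Library numbers are shared by the groups, but the residuals of same-numbered libraries did not correlate above 0.1 in every pair (-0.067 to 0.128), so they do not pair the libraries. Alternatives were a pseudocount of 0.1, no filter, a mean of at least 5 FPKM, quantile normalization, median-of-ratios scaling, a fit of the 6 compared libraries alone, a block for library number, and each of those 6 libraries left out. Some members of the lists are not reported here by name.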

Additional observations from a re-analysis of the deposited data

How the results depend on the processing

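Under the 13 alternatives, the counts of all genes and of metabolic, receptor and factor genes in each direction were within 1.5 times those reported, with 3 exceptions. Genes lower by at least 2-fold numbered 306 at a pseudocount of 0.1 and 97 at a mean of at least 5 FPKM, against 155, and factors that fell numbered 54 with a mean of at least 5 FPKM, against 82. That filter tests fewer genes, and the smaller pseudocount widens differences near 0. Of the 288 genes named, 286 of them called, none changed sign under these alternatives. Fth1 lost its call after quantile normalization, which sets the top value equal in all libraries, with a log2 difference of 0.00. Calls also changed for Tnfrsf1a, Rela and Aurka as given beside each, and a mean of at least 5 FPKM left 254 named genes to test. With libraries left out in turn, genes higher numbered 2196 to 2228 and genes lower 2245 to 2282. With the library number as a block, 2309 were higher and 2282 lower, and no named gene changed its call; the numbers do not pair the libraries. Median log2 differences over all genes were -0.02 after quantile normalization and 0.02 after median-of-ratios scaling. Read depth is unknown, so genes near 1 FPKM carry an error that the 3 libraries alone describe.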

Other observations

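Homeostatic microglial genes, of which 10 of 23 were tested, had 2 that rose and 8 that fell (median log2 difference -0.72), where 40.6% of all tested genes fell. Igf1, a growth factor that microglia supply to neurons, fell from 5.84 ± 0.522 to 2.94 ± 0.20 FPKM, while Tgfb1 and Vegfa rose from 59.1 ± 1.22 to 87 ± 4.0 FPKM and from 8.24 ± 0.572 to 11 ± 0.129 FPKM. The growth factor and guidance ligand list had 14 tested members, of which 8 rose, 5 fell and 1 did not pass the test, and Sema4c rose from 5.32 ± 0.119 to 11.6 ± 0.0931 FPKM. Csf1, the ligand of Csf1r, was at 11.5 FPKM untreated, 29.9 FPKM at 1 h and 9.48 FPKM at 12 h. The glycogen list had 9 tested members, of which 1 rose, 7 fell and 1 did not pass the test, against the same 40.6%. Gyg, the primer of glycogen, fell from 35.9 ± 1.52 to 23.5 ± 1.46 FPKM.

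Purine enzymes were divided, with 15 tested members, of which 6 rose, 6 fell and 3 did not pass the test. The inosine monophosphate dehydrogenases went opposite ways, Impdh1 rising from 13.5 ± 0.599 to 21.6 ± 0.584 FPKM and Impdh2 falling from 159.7 ± 3.94 to 135 ± 2.14 FPKM. Paics, an enzyme of new purine synthesis, fell from 132 ± 2.21 to 93.6 ± 1.83 FPKM, and Pnp, which breaks down purine nucleosides, rose from 23.7 ± 0.342 to 42.8 ± 1.33 FPKM. The fatty acid synthesis list had 9 tested members, of which 4 rose, 4 fell and 1 did not pass the test; Fasn fell from 46.2 ± 0.554 to 38.4 ± 1.2 FPKM, and Acsl4, which activates arachidonic acid, rose from 38.3 ± 1.45 to 60.4 ± 1.12 FPKM. The zinc finger list with KLF and EGR genes had 22 tested members, of which 7 rose, 10 fell and 5 did not pass the test, with quantile normalization giving 11 higher and 8 lower with a median of 0.05.

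The other motifs were searched on both strands of the same windows of 250 bases, and shares are given for genes higher by at least 2-fold, genes lower by at least 2-fold, all tested genes and all RefSeq windows, in that order. The C/EBP form (TTG, any 3 bases, AA) stood in 35.7%, 30.6%, 24.3% and 33.3%. The STAT form (TTC, any 3 bases, GAA) stood in 8.91%, 5.1%, 5.74% and 7.02%. The antioxidant response form (TGA, any 4 bases, GC) stood in 43.02%, 28.7%, 37.02% and 35.2%. The hypoxia form ACGTG stood in 17.4%, 15.9%, 23.04% and 16.6%, and the E-box CACGTG, which holds those letters, in 6.98%, 5.1%, 9.1% and 6.021%. The looser κB form (GGG, any 5 bases, CC), which takes in the κB form above, stood in 61.2%, 55.4%, 63.6% and 45.8%. For the E2F form (TTT, then CGCGC) the shares were 0.388%, 0.637%, 0.672% and 0.256%, and for the PU.1 form (GAGG, then AAGT) 3.49%, 3.18%, 2.74% and 2.44%. The composite C/EBP and ATF element (TGATG, any base, AAT) stood in 1.55%, none, 0.386% and 0.816%, and in 2 of 11 windows of aminoacyl-tRNA synthetase genes. The CHR stood in 15.1% of windows of genes higher and 14.6% of windows of genes lower by at least 2-fold.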
